A study of Homo sapiens with 12 samples.

Results

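The ZNF genes of human chromosome 19 encode zinc finger proteins, most of which carry tandem zinc fingers that read DNA and a KRAB domain that recruits repressors. They were followed here in HUDEP-2, a human erythroid progenitor line derived from cord blood, with and without the methyl-CpG binding protein MBD2. A gene was taken as a member when the counts table placed it on chromosome 19, its symbol was ZNF followed by digits alone, and it had at least 120 counts over the 12 libraries. This left 191 of 241 such genes on the chromosome, out of 60483 genes in the table, and all 191 passed the filter on low counts. The other 50 were too sparse, and 1 of them had 0 counts. ZNF223 (127 counts), ZNF497 (131) and ZNF404 (134) lay just inside the minimum. ZNF564 (107), ZNF43 (91) and ZNF44 (90) lay just outside it. Of the members, 190 were annotated as protein-coding and 1, ZNF807, as an unprocessed pseudogene.

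The 4 groups held 3 libraries each. Control cells carried a scrambled guide RNA and are labelled wild type, while knockout cells are labelled MBD2-/-. Both genotypes were sampled in expansion medium with stem cell factor, erythropoietin, dexamethasone and doxycycline (before differentiation, early basophilic erythroblasts per the labels). They were sampled again in medium with erythropoietin, doxycycline, insulin, heparin, transferrin and human serum (after differentiation, late basophilic erythroblasts). The medium changed with the stage, so the effect of each cannot be told apart. The labels give 3 days of differentiation in one protocol and 5 days in another, and do not say whether replicates were separate cultures or whether the knockout was 1 clone. P-values therefore measure the spread between these libraries, which may be technical.

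KRAB zinc finger proteins bind DNA, often within transposable elements, through a long array of fingers. Their KRAB domain recruits the corepressor TRIM28 (KAP1), which brings the histone methyltransferase SETDB1 and HP1 proteins, and the bound chromatin is silenced by methylation of histone H3 at lysine 9. The genes arose by repeated tandem duplication, so relatives sit side by side, and their own bodies are often packed in the same kind of chromatin. MBD2 reads methylated CpG sites and brings the NuRD complex, which remodels nucleosomes and removes histone acetylation.

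Among the members, 157 of 191 (82.2%) had a match to the KRAB box in the longest open reading frame of their annotated transcripts. The median number of C2H2 finger matches was 13, with a range of 1 to 33. Ordered along the chromosome and split at gaps of more than 1 Mb, the 241 ZNF genes fell into 16 clusters. Those that held at least 4 members were numbered 1 (2.82 to 2.94 Mb, 4 members), 2 (7.07 to 9.79 Mb, 12), 3 (11.5 to 12.6 Mb, 13), 5 (19.7 to 24.1 Mb, 15), 8 (34.5 to 35.0 Mb, 6), 9 (36.2 to 37.8 Mb, 21), 12 (43.5 to 45.1 Mb, 23), 15 (51.6 to 53.6 Mb, 34) and 16 (55.5 to 58.5 Mb, 55), in hg38. The share of ZNF genes that reached the minimum of counts differed between them. It was 13 of 25 in cluster 3 and 15 of 37 in cluster 5, against 34 of 39 in cluster 15 and 55 of 57 in cluster 16.

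The promoters of 6 members are shown, chosen after their values were seen, because the results turn on these genes: 4 neighbours of cluster 3 that were lower in knockout cells, then ZNF229 of cluster 12 and ZNF671 of cluster 16, which were higher. Each is the 250 bases before the RefSeq start (GRCh38.p14), 5′ to 3′ on the gene's strand, with CpG sites in capitals. They lie at chr19:12441022-12441271 (minus strand), chr19:12401272-12401521 (minus), chr19:11766750-11766999 (plus), chr19:11887532-11887781 (plus), chr19:44448579-44448828 (minus) and chr19:57727625-57727874 (minus).
ZNF443: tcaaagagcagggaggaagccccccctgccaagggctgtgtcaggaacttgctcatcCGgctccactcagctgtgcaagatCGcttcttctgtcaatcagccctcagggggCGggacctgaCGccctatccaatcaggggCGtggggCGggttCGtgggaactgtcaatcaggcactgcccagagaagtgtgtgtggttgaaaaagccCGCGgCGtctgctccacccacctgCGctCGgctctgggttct
ZNF799: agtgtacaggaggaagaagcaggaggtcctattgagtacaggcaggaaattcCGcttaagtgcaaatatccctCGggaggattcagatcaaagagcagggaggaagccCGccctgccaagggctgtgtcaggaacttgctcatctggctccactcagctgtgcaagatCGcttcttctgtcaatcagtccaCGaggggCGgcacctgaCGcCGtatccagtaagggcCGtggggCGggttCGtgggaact
ZNF441: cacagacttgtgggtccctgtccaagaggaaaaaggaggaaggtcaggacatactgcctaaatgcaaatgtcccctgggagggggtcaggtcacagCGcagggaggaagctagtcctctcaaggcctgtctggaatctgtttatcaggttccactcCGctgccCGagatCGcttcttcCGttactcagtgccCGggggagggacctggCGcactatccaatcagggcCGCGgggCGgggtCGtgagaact
ZNF69: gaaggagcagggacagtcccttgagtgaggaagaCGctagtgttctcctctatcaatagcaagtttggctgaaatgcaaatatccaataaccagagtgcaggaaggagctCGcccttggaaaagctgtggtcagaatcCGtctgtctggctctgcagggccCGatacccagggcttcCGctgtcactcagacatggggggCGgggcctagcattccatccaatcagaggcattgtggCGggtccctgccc
ZNF229: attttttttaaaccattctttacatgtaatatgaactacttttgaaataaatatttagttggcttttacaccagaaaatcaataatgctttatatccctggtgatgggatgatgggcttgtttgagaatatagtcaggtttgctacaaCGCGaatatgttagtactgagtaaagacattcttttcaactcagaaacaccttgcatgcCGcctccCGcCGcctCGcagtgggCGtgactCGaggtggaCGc
ZNF671: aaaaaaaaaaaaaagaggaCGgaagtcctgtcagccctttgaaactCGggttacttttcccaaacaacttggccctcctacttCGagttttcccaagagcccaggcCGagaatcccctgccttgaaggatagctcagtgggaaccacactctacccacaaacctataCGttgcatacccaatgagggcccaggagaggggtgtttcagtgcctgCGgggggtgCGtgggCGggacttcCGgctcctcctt

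The printed stretches held 12, 11, 11, 7, 9 and 9 CpG sites in that order. ZNF443, ZNF799 and ZNF441 share 2 runs of 13 bases, gcagggaggaagc and agatCGcttcttc, the longest common to their 3 sequences. Searched on both strands, the first was in 8 of 27326 RefSeq promoters of 300 bases (0.0293%) and in 3 of 170 members with a promoter in that table, which are the 3 it was taken from. The second, which holds a CpG site, was in 6 promoters (0.0220%), 4 of them members: those 3 and ZNF823, also of cluster 3. Over the window of 250 bases before to 50 after the start, the median number of CpG sites was 22 in the 170 members and 26 in the 9720 tested genes with a promoter. It was 18 in cluster 3, 10 in cluster 5, 23 in cluster 16 and 27 in cluster 1. Before differentiation, members called lower in knockout cells (below) had a median of 15 sites and those called higher 19. After it the medians were 16 and 21, and members called at neither stage had 22. No methylation was measured here.

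Levels are given as CPM, counts scaled to a common library size with library sizes scaled by TMM factors, and compared between genes only per kilobase of exon. Per kilobase over all 12 libraries, members ranged from 0.181 to 71.0 CPM with a median of 2.65. ZNF146, a protein made almost only of fingers, led with 71.0, followed by ZNF460 (59.0), ZNF121 (40.2), ZNF805 (14.4), ZNF787 (13) and ZNF317 (12.7). ZNF146 did not pass the test in either knockout comparison (log2 fold changes of -0.09 ± 0.08 before and -0.09 ± 0.08 after, adjusted p = 0.532 and 0.454, edgeR). All members together took a small share of the counts in each group. It was 0.432 ± 0.00753% in controls and 0.418 ± 0.0108% in knockout cells before differentiation, and 0.442 ± 0.00616% and 0.405 ± 0.00941% after it (SD, n = 3). After differentiation every knockout library (0.398 to 0.416%) was below every control library (0.436 to 0.448%). The TMM-scaled sums after differentiation went the other way in their means, at 4377 ± 34.4 CPM in controls and 4474 ± 123 in knockout cells. Their libraries overlapped.

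The libraries held 7667997 to 14047498 counts. MBD2 lay between 58.2 and 78.7 CPM in the 6 control libraries and between 14.6 and 24.5 in the 6 knockout libraries. The knockout libraries after differentiation had TMM factors of 0.883 to 0.931 against 1.01 to 1.07 in the other 9, and annotated ribosomal RNA took 1.68 to 2.74% of their counts against 0.394 to 1.29%. All 15 erythroid identity genes checked were detected, and 14 were called higher in knockout cells after differentiation (93.3%, against 16.8% of all genes tested). HBA2 and HBB are among the 14, but their libraries overlapped between the genotypes. HBB was at 282 to 1855 CPM in knockout cells and 104 to 371 in controls, in libraries that were globin depleted. Of 11 tested mast cell and basophil markers (15 listed), 5 were lower and 1 higher before differentiation, and 8 were lower after. Their summed level was 1184 to 1225 CPM in controls and 976 to 1002 in knockout cells before differentiation. After it, the sums were 833 to 854 and 478 to 498. KIT made up the largest part of these sums, at 741 CPM in controls and 662 in knockout cells before differentiation, and 586 and 370 after. It was called lower only after differentiation (adjusted p = 0.0695 before and 1.74e-07 after, edgeR). The high-affinity IgE receptor gene MS4A2 stood at 69.4 CPM in controls and 0.994 in knockout cells before differentiation. Neutrophil and monocyte markers (8 of 15 tested) summed to 17.4 to 19.7 CPM in controls and 35.2 to 45.1 in knockout cells before differentiation, where 5 were higher and 0 lower. After it the sums overlapped, at 6.42 to 8.14 CPM in controls and 7.32 to 10.7 in knockout cells, with 1 higher and 1 lower. Shares over all genes tested were 9.07% higher and 8.15% lower before differentiation, and 16.8% and 16.3% after. Lymphoid markers summed to at most 1.47 CPM in any library, with none of 13 tested. In bulk RNA, fewer cells of a type and less RNA per cell cannot be told apart, and the part of these shifts in the ZNF results was not tested.

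Before differentiation, 10 members were higher and 22 lower in knockout cells than in controls (edgeR quasi-likelihood test, Benjamini-Hochberg adjusted p under 0.05 over 17175 genes). Of all genes tested, 9.07% were called higher and 8.15% lower, or 17.2% in either direction, against 32 of 191 members (16.8%). The median log2 fold change of the members was -0.01, with quartiles of -0.16 and 0.17. The members' total share of calls was thus close to that of all genes, and the calls were spread unevenly along the chromosome. Without control replicate 1, the count of lower members was 14. In that fit 992 of 17665 genes tested were called lower, against 1400 of 17175 in the full fit.

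After differentiation, 28 members were higher and 20 lower in knockout cells, with a median log2 fold change of 0.05. All genes were called higher in 16.8% and lower in 16.3% of cases, 33.1% in all, against 25.1% of the members. Scaling by total counts alone, without TMM factors, turned this split into 18 higher and 46 lower and the median to -0.11. That scaling moved the median of all 17175 genes to -0.17 and the share of higher calls among all calls from 50.7% to 27.6%, so changes are given here relative to the TMM-scaled bulk of genes.

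**Figure D1:**
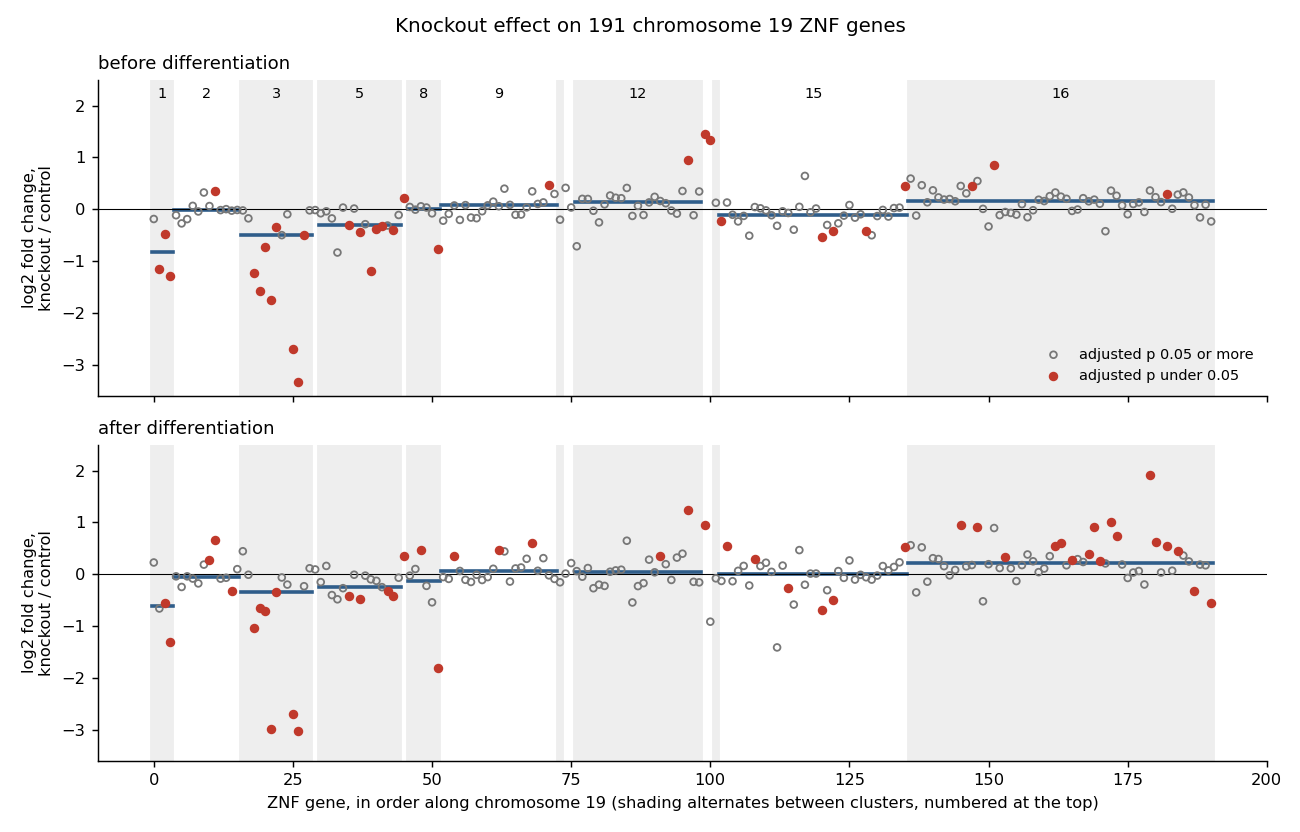
Log2 fold change of knockout against control (y axis) for each of the 191 members in their order along chromosome 19 (x axis), before (top) and after (bottom) differentiation. Filled points passed adjusted p under 0.05, blue lines are medians of clusters with at least 4 members, and numbers at the top name those clusters. Filled points in clusters 1, 3 and 5 lie below 0 in both panels, while 15 of the 17 filled points in cluster 16 after differentiation lie above 0.

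The members lower in knockout cells lay mostly on the short arm. Of 45 short-arm members, 1 was called higher and 17 lower before differentiation (median -0.19), and 2 higher and 14 lower after (median -0.18). The lower calls were not spread over the whole arm. Cluster 2, with 12 members there, had 1 higher and 0 lower before (median -0.015), and 2 higher and 1 lower after (median -0.054). Of 146 long-arm members, 9 were higher and 5 lower before (median 0.06), and 26 higher and 6 lower after (median 0.10). This split by arm was chosen after the values were seen, and no test compared the arms. Other genes of chromosome 19 with at least 120 counts (854) gave 128 higher and 31 lower before differentiation, with a median of 0.13, and 144 higher and 103 lower after, with a median of 0.02. The 192 ZNF genes with the same name pattern and minimum on other chromosomes gave 10 higher and 26 lower before, and 23 higher and 39 lower after.

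Cluster 3, on the short arm, held the 3 members with the largest decreases at each stage, ZNF443, ZNF799 and ZNF69. All 13 of its members had fold changes below 0 before differentiation (median -0.50), and 8 were called lower and 0 higher. After differentiation 7 were called lower and 0 higher, with a median of -0.33. The 11 other tested genes inside the same interval had a median of 0.10 before, with 1 lower and 0 higher, and 0.05 after, with 1 lower and 2 higher. Leaving out any 1 library gave 6 to 9 lower members before and 6 to 7 after, with 0 higher each time.

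ZNF443, a KRAB zinc finger gene with 16 finger matches, stood at 4.32, 3.79 and 3.05 CPM in undifferentiated controls and at 0.361, 0.0898 and 0.633 in undifferentiated knockout cells. After differentiation it was at 1.5, 1.74 and 2.95 in controls and at 0.117, 0.538 and 0 in knockout cells. Every control library was above every knockout library at each stage. Such separation was a condition for naming members by the size of a change, so here and below it adds no support. The log2 fold changes were -3.33 ± 0.44 (SE) before and -3.02 ± 0.60 after (adjusted p = 3.89e-05 and 0.000829, edgeR). The second value rests on 6 knockout counts over 3 libraries, and it was -4.76 without knockout replicate 2.

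ZNF799, the adjacent member on the same strand, has 15 finger matches. It was at 4.32, 4.60 and 2.95 CPM in controls and 0.722, 0.539 and 0.543 in knockout cells before differentiation. The levels after differentiation were 2.72, 2.98 and 3.16 against 0.703, 0 and 0.703. No libraries overlapped at either stage, and the log2 fold changes were -2.69 ± 0.36 and -2.70 ± 0.45 (adjusted p = 4.40e-05 and 0.000173, edgeR). The 2 genes share part of their sequence: 29.5% of the 50-base words of ZNF443 transcripts occur in ZNF799, and 16% of those of ZNF799 in ZNF443 (37.7% and 23.8% in any other gene). Both overlap the exons of AC008758.5. Reads of the shared stretches could have been split between them, so their values are uncertain to that extent and may not be independent.

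ZNF441, with 14 finger matches and almost no sequence in other genes (0.0211% of 50-base words), was better covered, with 1979 counts. Its libraries were at 20.6, 20.1 and 18.4 CPM in controls and 7.22, 6.02 and 6.61 in knockout cells before differentiation, a 2.98-fold lower mean. After differentiation they were at 19.7, 22.4 and 19.4 against 13, 14.9 and 11, a 1.58-fold lower mean. The groups were apart at both stages, by -1.57 ± 0.13 and -0.66 ± 0.12 on the log2 scale (adjusted p = 1.34e-07 and 0.000471, edgeR).

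ZNF69 was scarce, with 139 counts in all. It was at 2.25, 2.10 and 2.19 CPM in controls and 0.505, 0.629 and 0.814 in knockout cells before differentiation (log2 fold change -1.75 ± 0.31, adjusted p = 0.000723, edgeR). After differentiation controls held 35 counts and knockout cells 3. That is a ratio of knockout to control of 0.117, with an exact 95% binomial interval of 0.0230 to 0.370 that covers counting error only. It too was separated from the controls at both stages.

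Further members of cluster 3 were called as well. ZNF823 had log2 fold changes of -1.22 ± 0.18 before and -1.04 ± 0.23 after (adjusted p = 0.000118 and 0.00222, edgeR), and ZNF440 had log2 fold changes of -0.74 ± 0.14 and -0.71 ± 0.17 (adjusted p = 0.00131 and 0.00291). ZNF700 was called lower at both stages (-0.35 and -0.33), and ZNF490 before differentiation alone (-0.50). Without control replicate 1 the ZNF490 call did not hold (adjusted p = 0.0549), and 61.3% of its exon bases are shared with AC010422.6. The first ZNF700 call was lost without control replicate 1 or 2 or knockout replicate 2 (adjusted p = 0.143, 0.0765 and 0.116). The second was lost without control replicate 1 or knockout replicate 2 or 3 (adjusted p = 0.0789, 0.0526 and 0.0942). ZNF627, ZNF433, ZNF136, ZNF653 and ZNF791 were called at neither stage. ZNF791 and ZNF653, at the 2 ends of the interval, had fold changes of -0.02 each before differentiation.

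**Figure D2:**
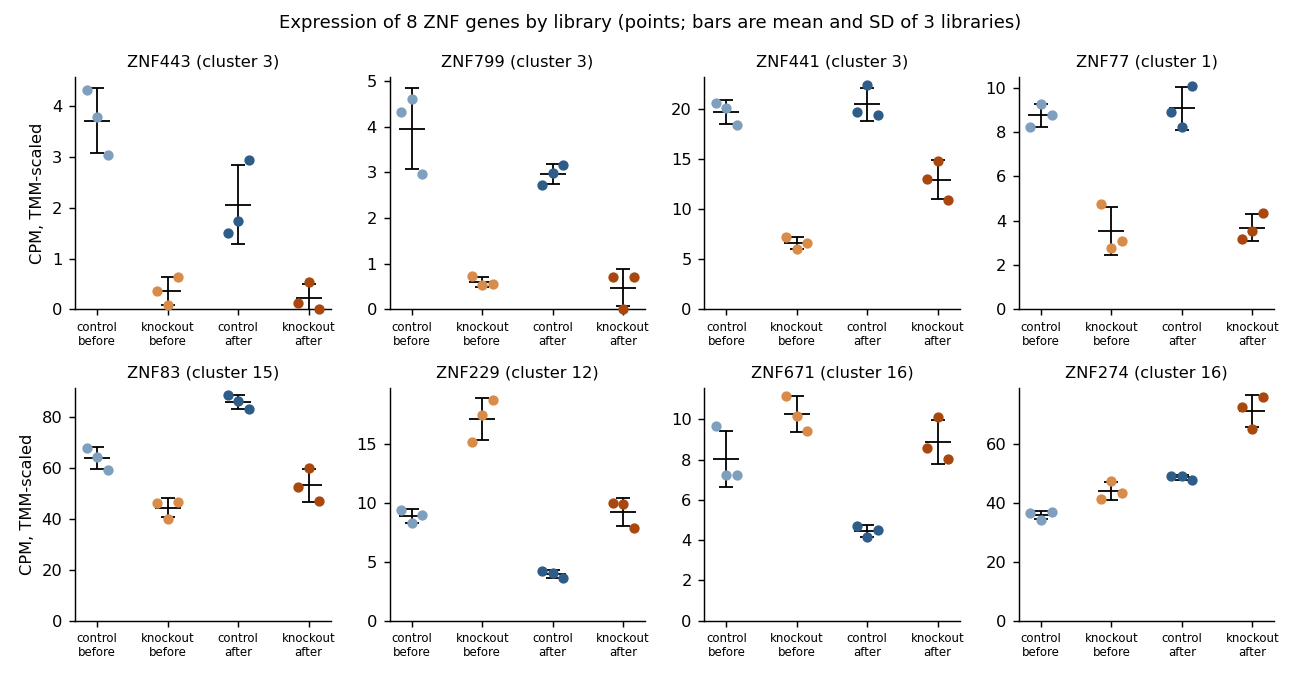
TMM-scaled CPM (y axis, linear) of 8 members in the 12 libraries, with points for libraries and bars for mean and SD of 3. ZNF443, ZNF799, ZNF441, ZNF77 and ZNF83 are lower in every knockout library than in every control library of the same stage, while ZNF229 and ZNF274 are higher, and ZNF671 is separated after differentiation.

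Cluster 1, the one nearest to the end of the short arm, holds 4 members, of which 3 were called lower before differentiation (median -0.82) and 2 after (median -0.61). ZNF77 was at 8.26, 9.28 and 8.76 CPM in controls and 4.76, 2.78 and 3.08 in knockout cells before differentiation, and at 8.91, 8.21 and 10.1 against 3.17, 3.55 and 4.36 after. All knockout libraries lay below all control libraries. The log2 fold changes of -1.28 ± 0.18 and -1.30 ± 0.20 were nearly the same size (adjusted p = 8.56e-05 and 6.75e-05, edgeR), and no sequence of ZNF77 was found in another gene. ZNF555 was lower before differentiation (-1.16 ± 0.25, adjusted p = 0.00342) and had a value of -0.66 ± 0.25 after, which missed the threshold (adjusted p = 0.0562, edgeR). ZNF57 was lower at both stages (-0.48 and -0.56), and 13.2% of its exon bases are shared with AC119403.1. Its first call was lost without control replicate 1 or 2 or knockout replicate 2 or 3 (adjusted p = 0.122, 0.0642, 0.0677 and 0.0907), and the second without knockout replicate 1 (adjusted p = 0.0742). With that library left out, 1 member of cluster 1 was lower after differentiation. ZNF554 was called at neither stage.

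Cluster 5 spans the pericentromeric region of the short arm, where large families of related KRAB zinc finger genes lie. Of its 15 members, 13 had values below 0 before differentiation and 14 after, with medians of -0.30 and -0.25. The test called 6 lower before and 4 after, and 0 higher. These calls depended on single libraries: without control replicate 1 there were 3 before, and without knockout replicate 3 there were 2 after. The 16 other tested genes in the interval had medians of -0.12 and -0.11, with 2 lower at each stage and 1 and 5 higher. ZNF708 was at 33.7, 33.2 and 31.1 CPM in controls and 23.9, 25 and 23.3 in knockout cells before differentiation (log2 fold change -0.44 ± 0.08, adjusted p = 0.0012, edgeR). It was at 34.3, 32.3 and 37.4 against 23.0, 26.4 and 24.7 after (-0.48 ± 0.09, adjusted p = 0.000337). The knockout libraries were below the controls at both stages.

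ZNF429, also in cluster 5, was lower only in the comparison before differentiation, with 9.19, 9.89 and 8.00 CPM in controls and 5.12, 3.05 and 3.53 in knockout cells. After differentiation the groups overlapped, at 10.7, 11.1 and 10.5 against 9.50, 10.9 and 9.84. The log2 fold changes were -1.19 ± 0.17 (adjusted p = 7.72e-05) and -0.10 ± 0.15 (adjusted p = 0.677), and their difference of 1.10 ± 0.23 itself passed the test (adjusted p = 0.00447, edgeR).

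**Figure D3:**
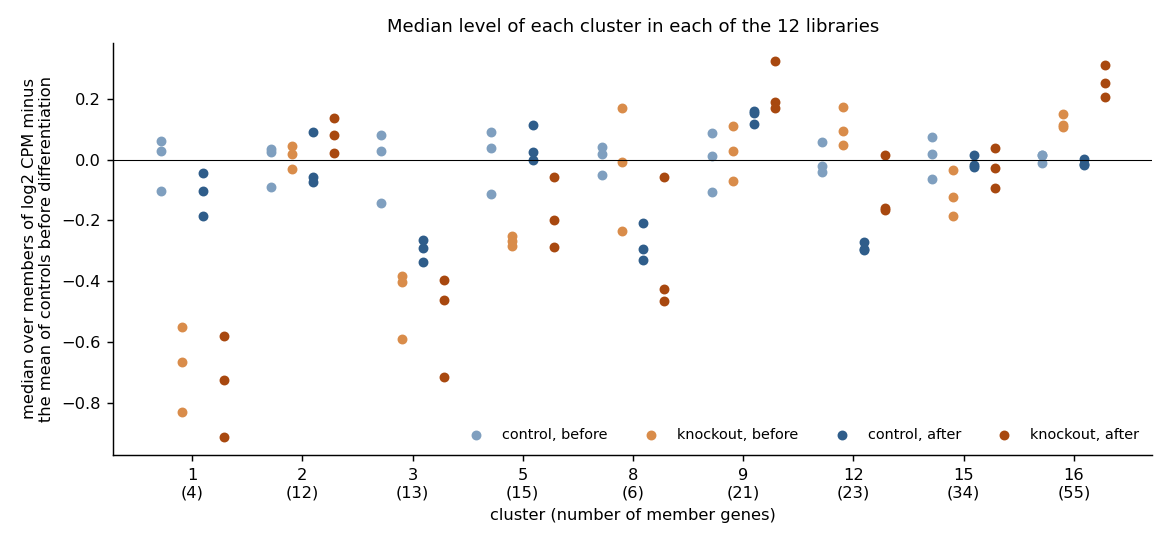
Median over the members of each cluster (x axis, number of members in brackets) of log2 CPM (pseudocount 0.5) minus the mean of the controls before differentiation (y axis), with 1 point for each of the 12 libraries. In clusters 1 and 3 the knockout libraries lie below the controls of the same stage, and in cluster 16 they lie above them, furthest after differentiation, at 0.21 to 0.31.

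On the long arm, cluster 16 next to the telomere held 15 of the 28 members that were higher after differentiation. Before differentiation 3 of its 55 members were called higher and 0 lower (median 0.15), and after differentiation 15 were higher and 2 lower (median 0.21). Values were above 0 in 40 of 55 members before and 46 of 55 after. The 41 other tested genes in this interval had medians of 0.05 and 0.13, with 1 higher and 0 lower before, and 8 higher and 2 lower after. The median after differentiation was 0.05 with total counts alone, with 10 higher and 4 lower. Leaving out any 1 library gave 11 to 17 higher members after differentiation. The 3 calls before differentiation dropped to 1 without control replicate 2 and to 1 without control replicate 3. The 2 lower calls after differentiation became 0 without knockout replicate 2.

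ZNF671 was higher in knockout cells than in controls after differentiation. Its libraries were at 4.69, 4.14 and 4.53 CPM in controls and 8.56, 10.1 and 8.01 in knockout cells, a 2.00-fold higher mean (log2 fold change 1.01 ± 0.17, adjusted p = 0.000149, edgeR). Before differentiation they were at 9.66, 7.25 and 7.24 against 11.2, 10.1 and 9.41, which overlapped (0.36 ± 0.14, adjusted p = 0.104). Between the stages it fell by 0.85 ± 0.16 in controls (adjusted p = 0.000404) and had a value of -0.20 ± 0.15 in knockout cells (adjusted p = 0.267). ZNF582, ZNF471, ZNF776 and ZNF211 gave the same order of values after differentiation, with log2 fold changes of 0.95 ± 0.19, 0.92 ± 0.23, 0.74 ± 0.09 and 0.90 ± 0.14 (adjusted p = 0.000814, 0.0057, 9.99e-06 and 8.43e-05, edgeR). None of these 4 was called before differentiation. ZNF256 had the largest value, 1.92 ± 0.40 (adjusted p = 0.00133), from 1.31, 1.09 and 0.105 CPM in controls and 3.40, 3.77 and 2.81 in knockout cells, so 1 control library was far below the others. It was 1.48 to 2.30 when 1 library was left out. ZNF584 was 1 of the 2 members lower after differentiation (-0.32 ± 0.09, adjusted p = 0.0137, edgeR), and its value before was 0.08 ± 0.09 (adjusted p = 0.621). ZNF667 and ZNF835 were higher before differentiation (0.45 ± 0.12 and 0.85 ± 0.26, adjusted p = 0.0143 and 0.0357), and missed the threshold after it (0.18 ± 0.13 and 0.89 ± 0.35, adjusted p = 0.32 and 0.0613). Leaving out knockout replicate 2 ended the ZNF584 call (adjusted p = 0.0848), and leaving out control replicate 2 or 3 that of ZNF667 (0.0544 and 0.0574). The ZNF835 call did not hold without control replicate 1 or 3 or knockout replicate 2 or 3 (0.112, 0.125, 0.107 and 0.0989).

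ZNF274, which binds the 3′ ends of zinc finger genes and recruits SETDB1 there, is itself a member of cluster 16. It was at 36.6, 34.3 and 36.9 CPM in controls and 41.5, 47.6 and 43.3 in knockout cells before differentiation. After differentiation it was at 49.2, 49.3 and 47.9 against 72.8, 65.2 and 76.1. Knockout libraries were above control libraries at both stages, by 0.30 ± 0.08 and 0.54 ± 0.08 on the log2 scale (adjusted p = 0.013 and 2.59e-05, edgeR). Leaving out control replicate 2 or knockout replicate 2 ended the first call (adjusted p = 0.0753 and 0.0564).

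ZNF229 of cluster 12 was higher in knockout cells at both stages. Its libraries were at 9.38, 8.26 and 8.95 CPM in controls and 15.2, 17.4 and 18.7 in knockout cells before differentiation, and at 4.22, 4.00 and 3.58 against 9.96, 9.90 and 7.87 after. The groups did not overlap, and the log2 fold changes were 0.95 ± 0.13 and 1.24 ± 0.16 (adjusted p = 3.96e-05 and 9.50e-06, edgeR). Only 1 other member of cluster 12, ZNF226, was called in a knockout comparison, higher after differentiation (0.36), with adjusted p = 0.0413 (edgeR). That call was lost without any 1 of the 3 controls after differentiation (adjusted p = 0.0714, 0.0957 and 0.101), knockout replicate 1 or 2 after it (0.104 and 0.232) or control replicate 2 before it (0.0538).

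Outside the large clusters, ZNF541 and ZNF114 lie together in cluster 13. ZNF541, known from male meiosis, had 185 counts and was higher in knockout cells at both stages, by 1.45 ± 0.37 and 0.96 ± 0.28 (adjusted p = 0.012 and 0.0133, edgeR). Control libraries were at 0.375, 0.474 and 0.571 CPM against 1.01, 1.89 and 1.09 before differentiation. The call before differentiation was lost without control replicate 1 (adjusted p = 0.0528) or knockout replicate 2 (0.0727), and the call after it without replicate 3 of either genotype (0.0538 and 0.0562). ZNF114 was higher in knockout cells before differentiation, at 12.7, 16.3 and 31.1 against 6.85, 8.06 and 8.57 CPM (1.34 ± 0.25, adjusted p = 0.000924), and the value was 0.88 without knockout replicate 3. After differentiation its groups were at 1.03, 0.654 and 0.631 in controls and 0.352, 0.323 and 0.562 in knockout cells, which missed the threshold (-0.92 ± 0.78, adjusted p = 0.409).

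The other clusters held few calls. In cluster 15, 1 member was higher and 4 lower before differentiation, and 3 were higher and 3 lower after. There ZNF83 was lower at both stages, from 67.7, 64.3 and 59.1 CPM in controls to 46.0, 40.0 and 46.7 before, and from 88.5, 86.3 and 82.9 to 52.3, 59.8 and 47.1 after. The separation amounted to -0.53 ± 0.09 and -0.69 ± 0.09 (adjusted p = 0.000358 and 9.71e-06, edgeR). ZNF331, an imprinted gene in some tissues, was higher by 0.44 ± 0.08 and 0.52 ± 0.08 (adjusted p = 0.000999 and 8.34e-05). In cluster 2, ZNF426 was higher by 0.36 ± 0.08 and 0.65 ± 0.09 (adjusted p = 0.00674 and 1.69e-05), and ZNF562 was lower after differentiation (-0.33 ± 0.07, adjusted p = 0.00274). In cluster 9, ZNF607 was higher before differentiation (0.47 ± 0.16, adjusted p = 0.0497) and at -0.02 ± 0.20 after (adjusted p = 0.952). That ZNF607 call was lost without any of 9 libraries, among them control replicates 1 and 3 (adjusted p = 0.201 and 0.113) and knockout replicates 1 and 2 (0.114 and 0.159), and all 5 libraries after differentiation other than control replicate 3 (0.0536 to 0.0637), which enter the fit through its estimate of the spread. ZNF569 of the same cluster was higher after differentiation (0.60 ± 0.13, adjusted p = 0.00132), and in cluster 8 ZNF181 was (0.47 ± 0.10, adjusted p = 0.00127).

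The 2 knockout comparisons share no library. Both stages gave a higher call for 6 members and a lower call for 15, against 5.37% and 5.09% of all genes tested. The 15 were 68.2% of the 22 lower members before differentiation and 75% of the 20 after, where the same shares over all tested genes were 62.5% and 31.2%. The 6 were 60% of the 10 higher members before and 21.4% of the 28 after, against 59.2% and 32.0% over all tested genes. No member was called in opposite directions, and neither were most genes (111 of 17175 tested were). Across the 191 members the log2 fold changes at the 2 stages had Pearson's r of 0.77 and Spearman's rho of 0.65, against 0.63 and 0.42 across all tested genes. Genes are not independent replicates, and all points share the same 12 libraries.

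**Figure D4:**
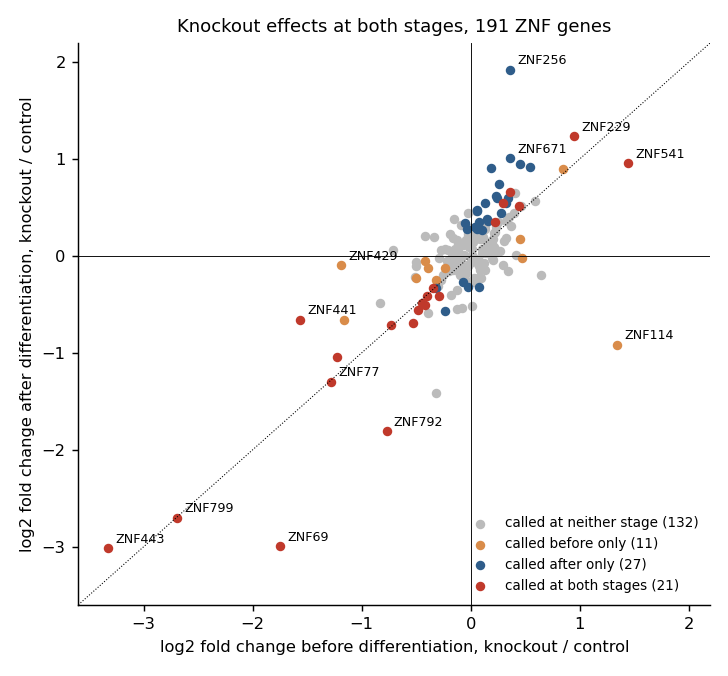
Log2 fold change of knockout against control before (x axis) and after (y axis) differentiation, 1 point per member, with the dotted line marking equal values. Of the 191 members, 21 were called at both stages, 11 before alone, 27 after alone and 132 at neither, and ZNF443, ZNF799 and ZNF69 lie farthest down on both axes.

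For 5 members the knockout effect itself differed between the stages, 4 with a positive and 1 with a negative difference, where 6.28% and 6.68% of all genes were called, 13% in all. ZNF441 and ZNF429 were less reduced after differentiation. ZNF792 of cluster 8 was more reduced. It was at 19.2, 19 and 18.3 CPM in controls and 11.8, 10.8 and 10.4 in knockout cells before differentiation, and at 9.00, 6.69 and 7.26 against 2.11, 2.48 and 1.83 after. All knockout libraries were below the controls, by 1.71-fold and 3.58-fold in the means, and the difference between the effects was -1.04 ± 0.22 on the log2 scale (adjusted p = 0.00511, edgeR). ZNF211 and ZNF776 were the other 2, with differences of 0.72 ± 0.18 and 0.48 ± 0.13 (adjusted p = 0.0156 and 0.0229). The call for ZNF776 was lost without control replicate 1 or knockout replicate 3 before differentiation (adjusted p = 0.0659 and 0.0526), or control replicate 2 or knockout replicate 1 after it (0.0584 and 0.0547). Without knockout replicate 1 before differentiation, 9 members had a positive and 3 a negative difference. Of 17693 genes tested in that fit, 1230 had a positive and 1145 a negative difference. The full fit gave 1079 and 1148 of 17175.

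Between the stages more members were called than between the genotypes. In controls 40 were higher and 40 lower after than before differentiation, where 21.5% and 22.3% of all genes were called (43.8% in all, against 41.9% of the members). In knockout cells 48 were higher and 37 lower, where 28.0% and 27.7% of all genes were called (55.7% in all, against 44.5% of the members). With total counts alone the second split was 31 higher and 65 lower. The median log2 fold changes were -0.07 and 0.05.

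In cluster 12 nearly all members that changed with differentiation were lower after it, in both genotypes. In controls 1 of its 23 members was higher and 9 lower (median -0.30), and in knockout cells 0 were higher and 10 lower (median -0.33), while the 19 other tested genes in the interval had medians of 0.23 and 0.15. ZNF229 was lower by -1.16 ± 0.15 in controls and -0.87 ± 0.13 in knockout cells (log2, adjusted p = 9.41e-06 and 2.44e-05, edgeR). ZNF285 was lower by a similar size (-1.20 ± 0.27 and -1.15 ± 0.26, adjusted p = 0.00153 and 0.00117). ZNF284 was too (-1.24 ± 0.31 and -1.54 ± 0.34, adjusted p = 0.00331 and 0.000971), although 43.6% of its 50-base words occur in another gene. ZNF45 was lower in knockout cells alone in the tests (-0.43 ± 0.10, adjusted p = 0.00172, against -0.11 ± 0.10, adjusted p = 0.381 in controls), and its difference did not pass (adjusted p = 0.16).

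The largest fall of any member with differentiation was that of ZNF114, from 7.83 ± 0.884 to 0.772 ± 0.225 CPM in controls and from 20.03 ± 9.77 to 0.412 ± 0.131 in knockout cells (SD, n = 3). The log2 fold changes were -3.33 ± 0.40 and -5.59 ± 0.44 (adjusted p = 3.92e-06 and 1.30e-08, edgeR). ZNF792 fell by 1.31 ± 0.13 and 2.35 ± 0.17 (adjusted p = 3.37e-07 and 5.91e-09), and ZNF480 of cluster 15 by 0.94 ± 0.09 and 1.14 ± 0.09 (adjusted p = 1.55e-07 and 1.36e-08). In cluster 16, ZNF211 fell by 1.07 ± 0.13 in controls (adjusted p = 5.56e-06) and ZNF71 by 1.63 ± 0.30 (adjusted p = 0.000292). ZNF615 of cluster 15 fell by 1.10 ± 0.24 in controls (adjusted p = 0.00121). ZNF470 of cluster 16 and ZNF836 of cluster 15 fell by 1.45 ± 0.35 and 1.5 ± 0.52 in knockout cells (adjusted p = 0.0019 and 0.0222). ZNF211, ZNF71 and ZNF615 were also called lower in knockout cells (log2 fold changes of -0.35, -1.11 and -0.81), and ZNF470 in controls (-0.92). Each of these further calls was lost in some fits that left out 1 library. The ZNF836 call did not hold without knockout replicate 1 before or replicate 3 after differentiation (adjusted p = 0.13 and 0.0868).

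Several members rose with differentiation. ZNF460, second in level per kilobase, was among them. ZNF146, the highest, was called lower after differentiation in both genotypes (log2 fold change -0.24 each, adjusted p = 0.0271 in controls, edgeR). Both ZNF146 calls were lost in some fits that left out 1 library (adjusted p up to 0.139 in controls and 0.118 in knockout cells). ZNF460 went from 152, 128 and 141 CPM to 281, 263 and 252 in controls, and from 152, 120 and 129 to 300, 273 and 290 in knockout cells. Every library after differentiation was above every library before it, with log2 fold changes of 0.92 ± 0.09 and 1.11 ± 0.09 (adjusted p = 1.91e-07 and 1.09e-08, edgeR). ZNF529 of cluster 9 rose by 0.95 ± 0.10 and 0.76 ± 0.10 (adjusted p = 5.85e-07 and 4.61e-06). ZNF606 of cluster 16 rose by 0.89 ± 0.17 and 1.28 ± 0.17 (adjusted p = 0.000493 and 5.49e-06). ZNF154 of cluster 16 rose by 0.79 ± 0.25 and 1.42 ± 0.27 (adjusted p = 0.0185 and 0.000299). Its call in controls was lost without replicate 2 before or replicate 1 or 2 after differentiation (adjusted p = 0.0955, 0.0726 and 0.0589). ZNF565 of cluster 9 rose by 0.86 ± 0.15 and 1.03 ± 0.16 (adjusted p = 0.000207 and 3.53e-05), with 11.6% of its exon bases shared with ZNF146. ZNF417 and ZNF587 rose as well (0.89 ± 0.08 and 0.79 ± 0.11 in controls, adjusted p = 8.60e-08 and 2.34e-05), but they are partial copies, with 37.2% and 18.3% of their 50-base words in other genes.

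**Figure D5:**
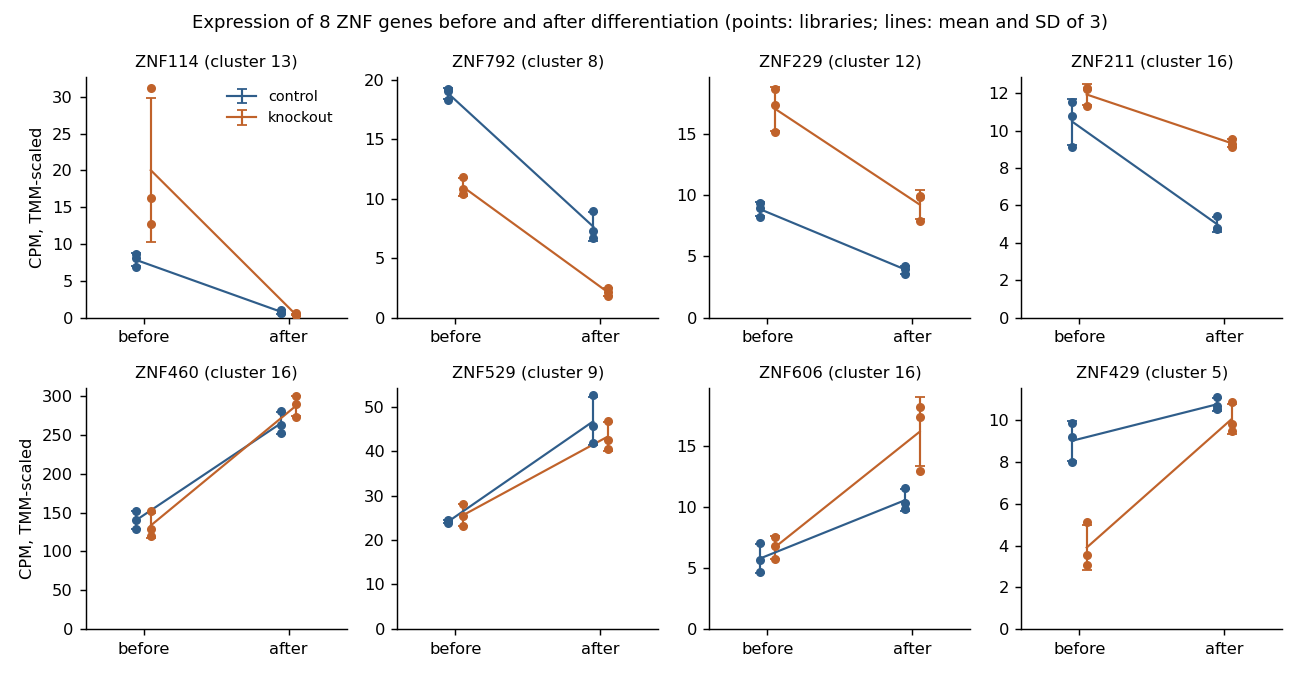
TMM-scaled CPM (y axis, linear) of 8 members before and after differentiation, with points for libraries and lines joining the means of 3 libraries with their SD, for control and knockout cells. Mean levels of ZNF114, ZNF792, ZNF229 and ZNF211 are lower after than before in both genotypes and those of ZNF460, ZNF529 and ZNF606 are higher, while the knockout mean of ZNF429 meets the controls after differentiation.

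Genes of the machinery through which KRAB proteins act were called about as often as genes in general. Of 31 tested genes of a list of 32 for the KRAB corepressor and heterochromatin, 2 were higher and 4 lower in knockout cells before differentiation (median 0.03), and 6 higher and 6 lower after (median 0.03). That is 19.4% and 38.7% called, against 17.2% and 33.1% of all genes tested. TRIM28, the KRAB corepressor itself, was not called at either stage (0.14 and 0.01, adjusted p = 0.412 and 0.945, edgeR). SETDB1 was not called either (-0.14 and -0.21, adjusted p = 0.294 and 0.0712). KIAA1551, also known as RESF1, was at 317 ± 17.8 CPM in controls and 170 ± 14.9 in knockout cells before differentiation (-0.90, adjusted p = 7.52e-08). After differentiation it had a value of 0.03 (adjusted p = 0.767), and the difference between the stages was 0.93 (adjusted p = 1.40e-05). ZKSCAN3, a zinc finger gene on another chromosome, was lower at both stages (-0.46 and -0.68, adjusted p = 0.000699 and 2.19e-05). The HP1 genes CBX5 and CBX1 were lower before differentiation (-0.30 and -0.34, adjusted p = 0.00463 and 0.0305), and CBX1 also after it (-0.59, adjusted p = 0.000791), where CBX5 had a value of 0.13 (adjusted p = 0.148). The histone demethylase gene KDM4A was higher at both stages (0.23 each, adjusted p = 0.0214 and 0.0107). The related KDM4C and the ATPase gene MORC3 were higher after differentiation (0.60 and 0.52, adjusted p = 3.19e-05 and 8.86e-05), and missed the threshold before it (0.24 and 0.18, adjusted p = 0.0874 and 0.159). Of 16 genes for methyl-CpG binding proteins and DNA methylation, MBD2 among them, 5 were higher and 2 lower before differentiation, and 5 higher and 3 lower after (43.8% and 50% called).

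A KRAB match, held by 82.2% of all members and 91.1% of those on the short arm, was found in 21 of the 22 members lower before differentiation and 19 of the 20 lower after. It was found in 7 of the 10 higher before and 23 of the 28 higher after (82.1%), and no test compared these shares. Of the 157 members with a KRAB match, 7 were higher and 21 lower before and 23 higher and 19 lower after. Of the 34 without one, 3 were higher and 1 lower before, and 5 higher and 1 lower after. The median G+C content of the transcripts was 42.5% in the members and 47.1% in all tested genes. Across all tested genes the log2 fold change before differentiation had a Spearman's rho of 0.29 with transcript G+C content, and 0.06 after, and across the members 0.29 and 0.19, and the part of base composition in the knockout effects was not tested. Exon bases shared with another gene on either strand exceeded 10% in 47 members, 5 of the 22 lower before differentiation among them. The counting recorded no strand option, so reads of such overlaps cannot be assigned.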

How the data were processed

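Total RNA from 12 libraries was ribosomal RNA and globin depleted and sequenced with a stranded kit, per the labels' protocols. The authors deposited whole-number read counts per gene. Per the file headers, featureCounts 1.4.6-p4 counted fragments over exons of GENCODE 22 genes (hg38) with no strand option recorded. The submitters' processing notes name Trimmomatic, FastQC, Subread 1.6.2, featureCounts 1.2.6 and edgeR 3.18.1. Symbols were joined by identifier from GENCODE 29 (56753 of 60483 genes named). Promoters came from RefSeq (GRCh38.p14, 170 of 191 members matched).

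Libraries held 7667997 to 14047498 counts, and their number (3 per group) and depth limit the precision of low members. Counts were filtered with filterByExpr, scaled by TMM and fitted over all 12 libraries with edgeR 4.0.16 (quasi-likelihood test, R 4.3.3, common biological coefficient of variation 0.089), with Benjamini-Hochberg adjustment over 17175 genes and a threshold of 0.05. The SE is the log2 fold change divided by the square root of F. The scripts were tested on simulated data. DESeq2 1.42.0, other scalings and filters, a replicate block, other cluster gaps and leaving out each library were the alternatives. Genes named in the text were, in each pairwise comparison, up to 8 called members per direction with the largest change, no overlap between groups and mean log2 CPM of at least 0, up to 5 per direction with the smallest adjusted p for the stage difference, the 6 highest levels per length, members with 3 counts or fewer in a group, ZNF274, and the best-called member of each cluster. The other members of clusters 1 and 3, ZNF226 and ZNF807 were named after their values were seen. The members and lists were chosen with earlier results of these data known.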

Additional observations from a re-analysis of the deposited data

Results flagged for a closer look

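In 5 members the effect of the knockout differed between the stages by a test of the difference itself (edgeR quasi-likelihood test, Benjamini-Hochberg adjustment). ZNF441 in cluster 3 had log2 fold changes of -1.57 before and -0.66 after differentiation, a difference of 0.91 ± 0.18 (SE, adjusted p = 0.00257). ZNF429 in cluster 5 went from -1.19 to -0.10, a difference of 1.10 ± 0.23 (adjusted p = 0.00447). ZNF792 in cluster 8 went from -0.77 to -1.81, a difference of -1.04 ± 0.22 (adjusted p = 0.00511). ZNF211 in cluster 16 went from 0.19 to 0.90, a difference of 0.72 ± 0.18 (adjusted p = 0.0156). ZNF776, also in cluster 16, went from 0.26 to 0.74, a difference of 0.48 ± 0.13 (adjusted p = 0.0229). The ZNF776 call was lost in some fits that left out 1 library (adjusted p = 0.0526 to 0.0659).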

How the results depend on the processing

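Among 125 calls of the 51 genes named by rule, 2145 of 2242 values under an alternative kept their direction and call, 97 kept their direction and lost the call, and 0 reversed. Most of these genes were chosen for large changes or small adjusted p, so these counts do not describe the calls of other members. With total counts only, members were 18 higher and 46 lower after differentiation (median -0.11), 31 higher and 65 lower with differentiation in knockout cells (median -0.13), and the stage difference had 4 lower members and a median of -0.074. That scaling put the median of all genes at -0.17, -0.16 and -0.15, and moved the share of higher calls among all genes called from 50.7% to 27.6%, from 50.3% to 35.1% and from 48.5% to 23.1%. Before differentiation that share went from 52.7% to 44.4%. The count of members with a lower stage difference was 2 with DESeq2 size factors, 2 with no filter, 2 with DESeq2 and 3 with the replicate block, which gave 8 higher. Same-numbered libraries correlated between -0.02 and 0.25, with 10 of 18 pairs over 0.1 against 6 of 36 pairs with different numbers. Not every pair exceeded 0.1 and the labels give the number no meaning, so the fits reported here have no block; whether the numbers mark a shared batch is not known. With the block, 13 members were higher and 23 lower before and 30 higher and 24 lower after differentiation. Calls over all 17175 genes rose too. Before differentiation they went from 1558 higher and 1400 lower to 1869 and 1622. After it they went from 2882 and 2805 to 3117 and 3020, and for the stage difference from 1079 and 1148 to 1344 and 1384.

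With a gap of 2 Mb the cluster of ZNF441 held 25 members, those of clusters 2 and 3, with 1 higher before and 2 higher after. Its lower calls were 8 in cluster 3 and 0 in cluster 2 before, and 7 and 1 after. That of ZNF671 held 92, those of clusters 13 to 16, with 6 higher and 4 lower before and 5 lower after. Its higher calls after differentiation were 15 in cluster 16, 3 in cluster 15, 1 in cluster 13 and 0 in cluster 14. With a gap of 0.5 Mb, 1 member of the cluster of ZNF671 was higher before. Leaving out each library gave 14 to 23 lower members before differentiation (14 without control replicate 1) and a median of 0.0058 to 0.075 after (lowest without knockout replicate 2). Without control replicate 1, 992 of 17665 genes tested were lower, against 1400 of 17175 in the full fit. For the stage difference, leaving out each library gave 3 to 9 higher (9 without knockout replicate 1 before differentiation) and 1 to 3 lower members. In the fit with 9, 1230 of 17693 genes tested were higher, against 1079 of 17175 in the full fit. The cause of these shifts was not tested.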
